A study of Homo sapiens with 9 samples.

Results

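Described here are the probes that the scanner software detected only when UHRF1 was depleted by siRNA (siUHRF1) and not with a control siRNA (siCONT), whether or not trichostatin A (TSA) was given. RKO is a human colorectal cancer cell line whose arrays hold 50599 probes outside the controls, and 121 of them were chosen by the detection flag "well above background", which had to be absent from all 4 siCONT arrays and present on all 4 siUHRF1 arrays. Cancer-testis antigen families named MAGE, GAGE, PAGE, XAGE, SSX, SPANX or CTAG, the PCDH and HOX genes, and IGF2, SOHLH1 and TIMP2 had been left out, which removed 14 of the 135 probes that met the flags. The 121 probes carry 117 of the 36337 names on the array, and 80 belong to protein-coding genes of RefSeq. Had siUHRF1 replicate 1 not been used, 199 probes would have been chosen.

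UHRF1 reads hemimethylated DNA behind the replication fork and recruits DNMT1, the enzyme that copies the methylation pattern onto the new strand. Cells that lose UHRF1 dilute their DNA methylation as they divide, and genes held off by promoter methylation, many of them germline genes, are the class classically tied to such a loss. TSA inhibits histone deacetylases, and 5-aza-2′-deoxycytidine (5-aza-dC) traps DNA methyltransferases and demethylates by another route.

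The 8 siRNA arrays formed 4 groups of 2. RKO cells received a control siRNA (siCONT) or a UHRF1 siRNA (siUHRF1) and were kept for 72 h, followed by 24 h with ethanol (mock) or with 300 nM TSA. Replicate 1 of siUHRF1 carried siUHRF1-1 and replicate 2 carried siUHRF1-2, so the spread in that group includes the difference between the siRNAs. A further array came from RKO cells without siRNA that were exposed to 1 µM 5-aza-dC for 72 h, and it has no replicate. RKO is 1 cell line, the labels do not say whether the arrays of a group came from separate cultures, and p-values therefore measure only the spread between these arrays.

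Signals are given relative to the 75th percentile of each array, which was set to 100. That percentile lay between 245 and 338 signal units on the siRNA arrays and at 822 on the 5-aza-dC array, and 43.7% to 46.6% and 51.6% of the probes were above background. All siRNA arrays shared 1 slide and 1 scan. The siCONT arrays filled columns 1 and 2 of that slide and the siUHRF1 arrays columns 3 and 4, so column and siRNA cannot be told apart. The mock arrays filled row 1 and the TSA arrays row 2, so row and TSA cannot be told apart either. The same holds for slide, scan and drug in the case of 5-aza-dC. UHRF1 itself read 644 and 645 in siCONT against 128 and 105 in siUHRF1, and 731 and 728 against 79.1 and 65.0 under TSA. Of 13 colon epithelium markers, 5 were above background on all 4 siCONT arrays, among them KRT18 and CDX2, whereas CDH1, VIL1, CDH17, LGALS4 and FABP1 were not above background on any siRNA array.

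The chosen probes were dim. Their mean relative signal had a median of 2.63 in siCONT and 8.79 in siUHRF1, and of 3.20 in siCONT + TSA and 16.9 in siUHRF1 + TSA. Since siCONT gave no detected signal, the rise over it is stated as a lower limit. Each siCONT array entered it with the lowest signal detected on that array, unless the probe itself read more. In bulk RNA a weak signal from every cell and a strong one from few cells cannot be told apart. For siUHRF1 over siCONT that limit had a median of 1.69-fold and exceeded 2-fold for 38 probes, 5-fold for 8 and 10-fold for 2. Under TSA its median was 2.79-fold, and 78 probes exceeded 2-fold, 36 exceeded 5-fold and 17 exceeded 10-fold. These values describe what the selection used and carry no test.

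"Switched on" would overstate many of them. The software has a second, laxer flag for a signal that is positive and significant against its local background. That flag was set on all 4 siCONT arrays for 67 of the 121 probes, on 1 to 3 of them for 42, and on none for 12, which include TET1, KLK8, RADIL, TEKT2, POTED, C22orf34 and CXorf67. In 47 of the genes the array carries further probes, 89 in all. Another probe was above background on all 4 siCONT arrays in 24 of these genes, and in 17 no other probe was above background on any. KRT8, a keratin of simple epithelia, shows the former: the selected probe read 1.22 and 3.83 in siCONT, whereas another KRT8 probe read 411 and 405 there. For CELSR1, an adhesion receptor of the cadherin family, another probe stood at 6538 and 6834 in siCONT.

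The flags did not follow the level strictly. The 3 dimmest selected probes were those of DHX58, XLOC_013195 and COL9A2, whose lowest siUHRF1 signals were 4.61, 4.64 and 4.65. Just outside lay 160 probes detected on 3 of the 4 siUHRF1 arrays and 79 detected on 1 siCONT array. The 3 brightest outside were IFFO1, which was above background on 1 siCONT + TSA array at 7.78, and GNG11 and IRX4, which were not above background on siUHRF1 replicate 1 at 4.56 and 5.49.

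**Figure D1:**
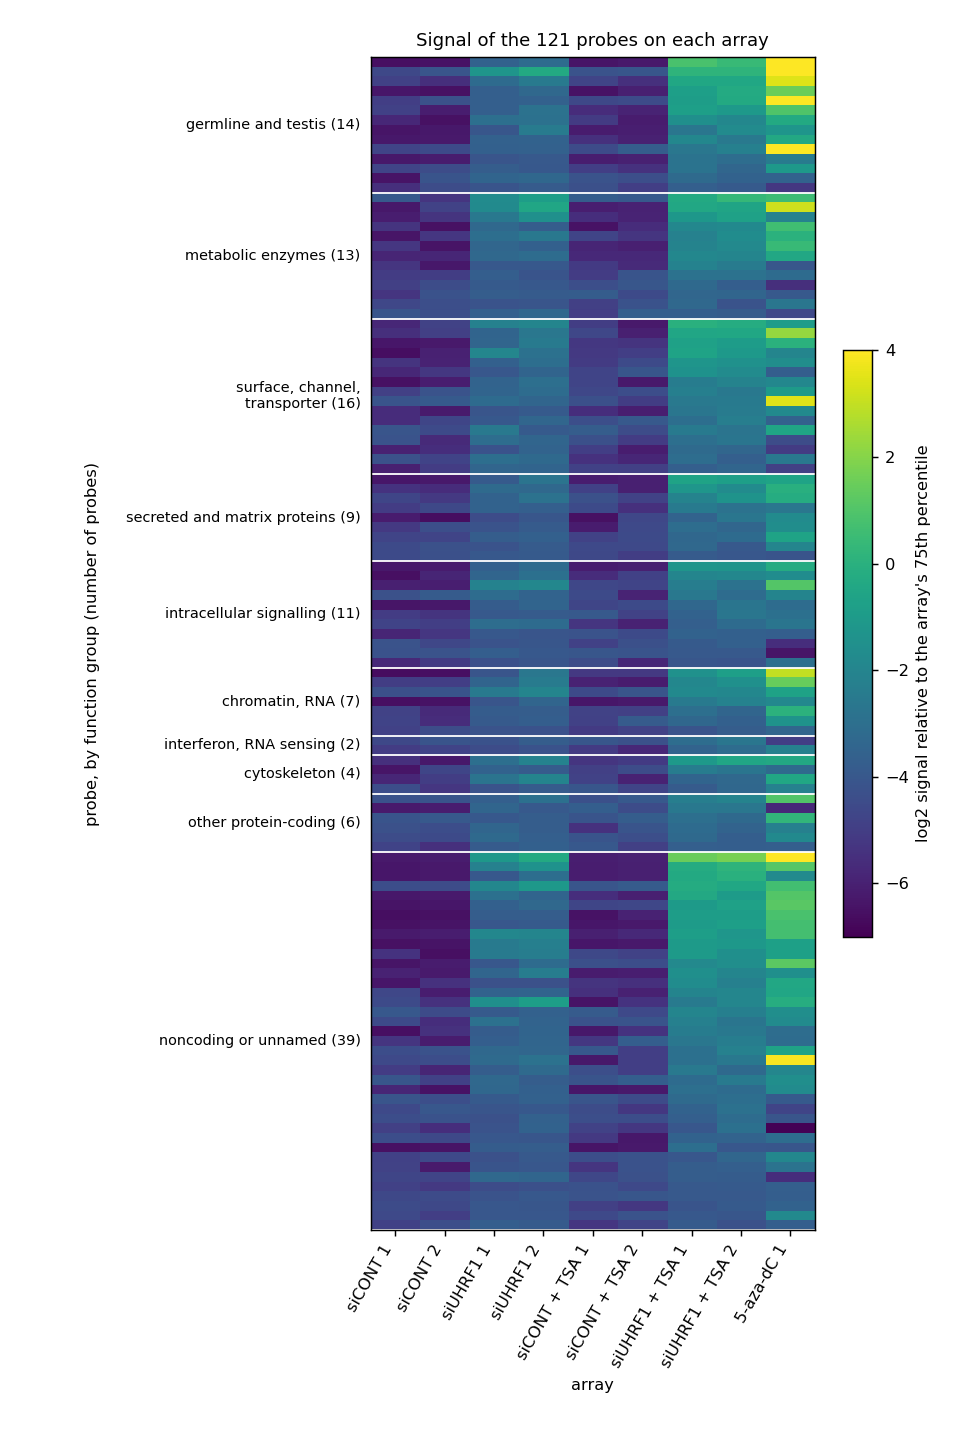
Log2 signal relative to the 75th percentile of each array (colour, saturating at -7 and 4) for the 121 selected probes (lines, grouped by function) on the 9 arrays (columns). The siCONT columns are dark throughout, the siUHRF1 + TSA columns are brighter than the siUHRF1 columns for most probes, and the 5-aza-dC column holds both the brightest and some of the darkest cells.

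For the genes that carry the main results, the 30-base window of most CpG in the RefSeq promoter (250 bases before to 50 after the start) is shown with CpG in capitals because CpG is the site that DNMT1 methylates, 5′ to 3′ on the strand of the gene.
TKTL1: tCGcaggCGccattCGctcttcagaCGcCG
CBS: CGCGgggCGctgCGcaCGgCGtcCGgCGgc
COX7B2: CGCGcagtccttcatgtgacCGcctcttcc
TET1: CGCGttttgtctctCGctcaactgtgcagg
FTCD: CGtataaaggccctggCGgCGgctgCGgag
VCX2: CGatacccagctgagCGagtgtgtttgctg
GPAT2: acaaccaccaccaccataacaaaataCGtt

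These windows lie at chrX:154295787-154295816 for TKTL1, chr21:43076422-43076451 for CBS, chr4:46909288-46909317 for COX7B2, chr10:68560280-68560309 for TET1, chr21:46155581-46155610 for FTCD, chrX:8171326-8171355 for VCX2 and chr2:96036251-96036280 for GPAT2 in GRCh38.p14. The CBS window holds 8 CpG and lies 74 to 45 bases before the start, TKTL1's holds 5 across the start itself, and COX7B2's and TET1's hold 3 each. GPAT2 has 1 CpG at most in any such window, and the window of VCX2 has 2. Methylation of these windows was not measured here.

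Germline and testis genes had the highest median limit of all function groups on the 5-aza-dC array, 39.3-fold over siCONT among those detected. Of 14 such probes, 8 were higher in siUHRF1 + TSA than in siUHRF1 and 13 were detected with 5-aza-dC. Among all selected probes 34.7% were higher with TSA and 90.1% were detected with 5-aza-dC. Of all probes tested on the array, 9.95% were higher with TSA. The counts of this and the following function groups stand beside these shares, and a difference between groups was not tested. The function groups were drawn up with the selected names in view.

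TKTL1, a transketolase-like protein of the testis and of some tumours, had the largest limit of any named gene in siUHRF1. Its probe (chrX:153558624-153558683, hg19 as in the files) read 4.05 and 5.81 in siCONT and 42.2 and 80.5 in siUHRF1, and 5.49 and 6.02 in siCONT + TSA and 113 and 110.2 in siUHRF1 + TSA. All 4 siUHRF1 arrays read above all 4 siCONT arrays, which the selection all but required. The group means differed by at least 10.97-fold without TSA and at least 19.4-fold with it. The 5-aza-dC array read 3516, at least 662-fold over siCONT.

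Less than 1 Mb away on the X chromosome, the locus XLOC_l2_015849 (chrX:152661129-152661188) gave the largest limits of all. It matched no RefSeq gene, and the files cite a testis cDNA clone for it. It read 1.30 and 1.38 in siCONT, 46.1 and 80.02 in siUHRF1, 1.48 and 1.58 in siCONT + TSA and 282 and 339 in siUHRF1 + TSA. The limits were 12.1-fold and 54.6-fold, and on the 5-aza-dC array its signal of 7820.4 was at least 1564-fold over siCONT.

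CXorf67 (now EZHIP), which the files list by its transcript identifier and which encodes a germline inhibitor of the Polycomb repressive complex PRC2, was weak without TSA and strong with it. It read 1.06 and 1.15 in siCONT and 8.62 and 11.7 in siUHRF1, then 1.21 and 1.30 in siCONT + TSA and 179.5 and 135 in siUHRF1 + TSA. The limit was 2.01-fold without TSA and 27.5-fold with it.

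COX7B2, a testis isoform of a cytochrome c oxidase subunit, followed the same order, with 1.26 and 1.08 in siCONT, 7.76 and 10.2 in siUHRF1, 1.14 and 1.53 in siCONT + TSA and 58.1 and 81.97 in siUHRF1 + TSA. GPAT2, a glycerol-3-phosphate acyltransferase of male germ cells, read 11.1 and 17.6 in siUHRF1 and 74.3 and 72.4 in siUHRF1 + TSA against 3.46 and 2.18 in siCONT. A second GPAT2 probe, which shares 26 bases with the first, was above background on every array, at 27.0 and 28.0 in siCONT and 80.3 and 85.1 in siUHRF1 + TSA.

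VCX2 and VCY, variable charge proteins of male germ cells, were barely over the detection limit in siUHRF1, at 7.82 and 8.37 and at 8.20 and 8.46. Under TSA siUHRF1 cells read 54.6 and 79.7 for VCX2 and 16.2 and 21.5 for VCY. The transcripts that the files cite belong to 4 VCX genes for the VCX2 probe and to both VCY copies for the VCY probe, so the gene behind either signal is uncertain. The same holds for NXF2, an mRNA export factor of the testis, and for the ankyrin-repeat genes POTEB, POTED and POTEE, and 9 selected probes in all cite transcripts of more than 1 RefSeq gene. Another POTEE probe stood at 1762 and 1724 in siCONT, and a second VCY probe that shares 44 bases with the selected one was above background on all 8 siRNA arrays. So was a second VCX2 probe, at 18.6 and 17.3 in siCONT and 55.6 and 84.6 in siUHRF1, and signal of this family was thus detected in control cells.

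Metabolic enzymes formed the next distinct group, with 13 probes for 11 genes, 3 probes higher with TSA and 11 detected with 5-aza-dC. CBS, which makes cystathionine from homocysteine in the transsulfuration pathway, read 1.29 and 3.47 in siCONT and 30.2 and 71.9 in siUHRF1. Both siUHRF1 arrays read above both siCONT arrays, which the selection all but required. The group mean lay at least 9.31-fold over siCONT, although the siRNAs differed by more than 2-fold. With TSA the values were 1.49 and 1.60 in siCONT and 74.8 and 66.1 in siUHRF1, with group means at least 12.4-fold apart.

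PPAPDC3 (PLPP7), of the phosphatidic acid phosphatase family, was selected through 2 probes. The first read 6.66 and 2.52 in siCONT and 30.6 and 54.2 in siUHRF1, and the other 1.45 and 2.43 and 16.6 and 36.4. FTCD, an enzyme of histidine and folate metabolism, also had 2 probes, which share 37 bases and are not independent. They stood over siCONT by at least 1.77-fold and 1.76-fold without TSA and by at least 4.59-fold and 4.88-fold with it. ACSS1, a mitochondrial acetyl-CoA synthetase, read 10.2 and 11.5 in siUHRF1 and 26.6 and 24.96 in siUHRF1 + TSA, and SARDH, which oxidises sarcosine, 6.29 and 6.45 and 22.6 and 18.7. For SARDH another probe was above background on every siRNA array, at 25.04 and 27.9 in siCONT and 147 and 126 in siUHRF1 + TSA.

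Among 16 probes for surface, junction, channel and transporter proteins, 7 were higher with TSA. ICAM2, an adhesion molecule of endothelium and leukocytes, read 1.83 and 3.51 in siCONT, 22.3 and 24.95 in siUHRF1 and 98.3 and 87.4 in siUHRF1 + TSA. TRPM2, a calcium-permeable channel, went from 1.25 and 1.32 in siCONT to 9.37 and 17.4 in siUHRF1 and 62.2 and 53.4 in siUHRF1 + TSA. MRC2, a collagen-binding receptor, read 9.05 and 16.02 in siUHRF1 and 70.98 and 72.98 in siUHRF1 + TSA. CD33, a sialic acid-binding receptor of myeloid cells, read 6.25 and 9.12 and 38.1 and 30.6 in the same groups. The teneurin gene ODZ2 (TENM2) was seen by a further probe, which read 2.60 and 2.34 in siCONT and 78.1 and 45.4 in siUHRF1, and which missed selection through detection on both siCONT + TSA arrays.

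Secreted and matrix genes (9 probes) had limits of 2.18-fold or less in siUHRF1. KLK8, a secreted serine protease, read 1.25 and 1.31 in siCONT, 6.82 and 14.7 in siUHRF1 and 64.7 and 58.3 in siUHRF1 + TSA. SULF2, an extracellular sulfatase, and WNT6, a Wnt ligand, were the other members of the group that rose with TSA.

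Of 11 intracellular signalling probes only that of RADIL, a Ras-association protein, rose with TSA. BEX2, an X-linked adaptor-like gene, had the largest limit in this group. It read 1.54 and 1.47 in siCONT and 23.2 and 26.5 in siUHRF1, then 3.98 and 3.73 in siCONT + TSA and 19.7 and 13.9 in siUHRF1 + TSA.

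TET1, which oxidises 5-methylcytosine, read 1.08 and 1.14 in siCONT and 5.91 and 9.45 in siUHRF1. Under TSA it read 1.22 and 1.31 in siCONT and 17.8 and 22.7 in siUHRF1. Its other 2 probes were above background on no siCONT array and on 1 siUHRF1 array at most. HIST1H1A, a linker histone gene, reached 37.03 and 57.5 in siUHRF1 + TSA, and the zinc finger genes ZNF274, ZNF595 and ZSCAN18 were also selected. DHX58 and IFIT3, which act in RNA sensing and in the interferon response, had limits of 1.77-fold and 2.26-fold under TSA, and for DHX58 no fold can be given without TSA because its signal did not exceed the detection limit of siCONT.

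Cytoskeletal genes held 4 probes, of which that of ESPNL, an espin-like actin bundler, rose with TSA from 12.6 and 23.2 to 48.98 and 72.1. Among 6 probes grouped as other protein-coding, those of HBM and MTRNR2L3 rose with TSA. RefSeq lists MTRNR2L3 as a pseudogene. Its probe shares 27 bases with a probe of MTRNR2L7 that was above background on all 8 siRNA arrays.

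Noncoding RNAs, pseudogenes and loci without a gene symbol held 39 probes. LOC100506930 (LINC00665) read 34.7 and 56.1 in siUHRF1 against 4.31 and 2.29 in siCONT, but 7 of its other 8 probes were above background on every siRNA array. LOC729444 read 1.24 and 1.31 in siCONT, 22.4 and 38.2 in siUHRF1 and 83.9 and 110.2 in siUHRF1 + TSA. Neither MGC39584 nor the probe A_33_P3323914 on chromosome 11, with limits of 5.20-fold and 7.03-fold in siUHRF1, matched a RefSeq gene.

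**Figure D2:**
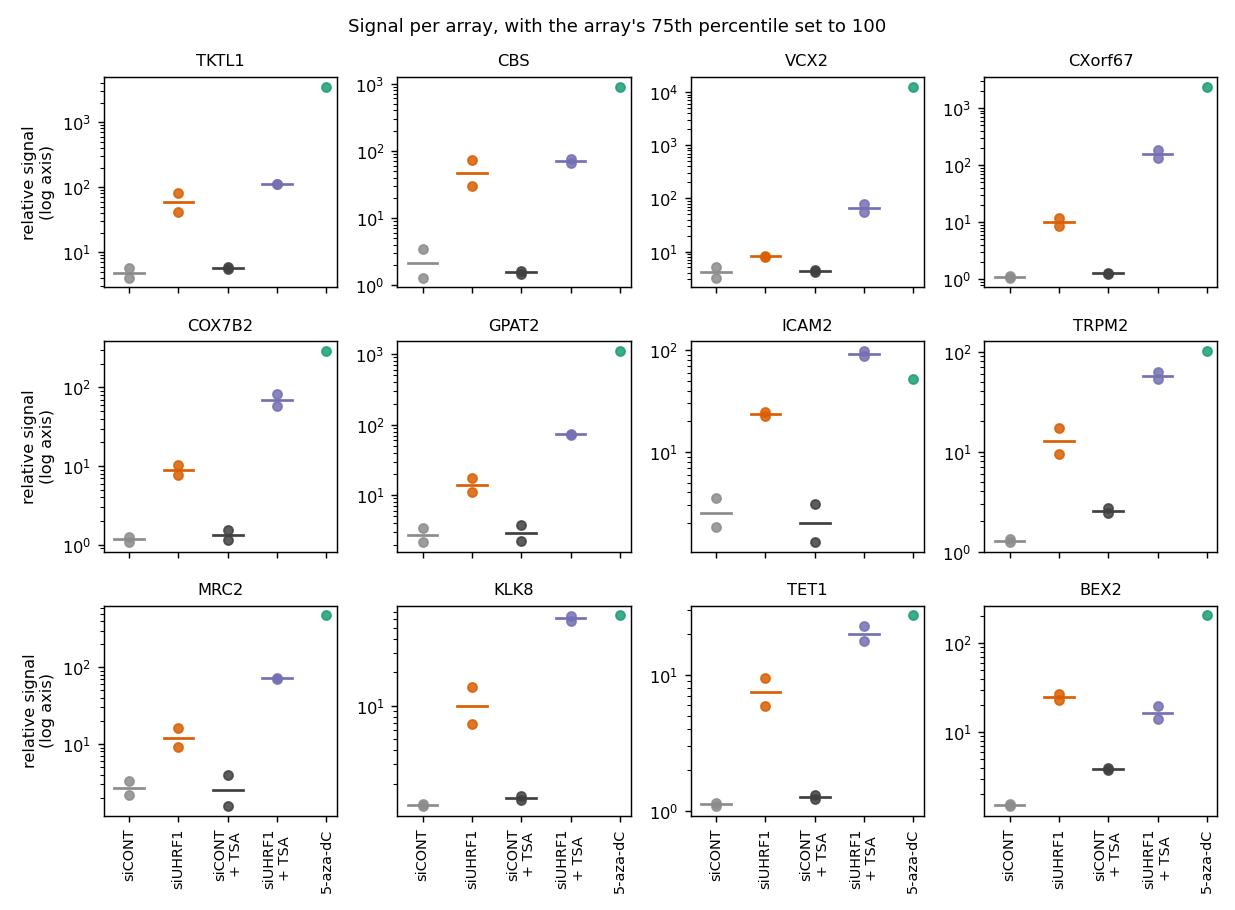
Relative signal on a log axis (75th percentile of each array = 100) of 12 selected probes, with 1 point per array and a line at the mean of the log values of 2 arrays. In every panel the siUHRF1 and siUHRF1 + TSA points lie above both siCONT groups, which the selection all but required. The single 5-aza-dC point is the highest in all panels except that of ICAM2.

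TSA was also compared with mock within the UHRF1-depleted cells. The selection asked for the same detection flag in both groups, but it drew on these arrays and on the absence of the flag in siCONT + TSA. The members were dim in siUHRF1 (median 8.79), so a large fall with TSA would have cost a probe its flag, whereas a large rise would not. Row 1 of the slide held the mock arrays and row 2 the TSA arrays. The members' counts and adjusted p are therefore given as a description. The probes of the whole array, given beside the members, did not pass that selection, so their shares are a background and not a control. Of the 121 probes, 42 (34.7%) rose in siUHRF1 + TSA over siUHRF1 and 0 fell at an adjusted p below 0.05 in limma. Over all 23727 probes tested, 9.95% rose and 5.53% fell. The median log2 difference was 0.92, or 1.89-fold, for the 121 probes and 0.07 for all probes tested. Both TSA arrays lay above both mock arrays for 90 of the 121 probes and below them for 6, and the former pattern was met by 32.1% of all probes tested. At an unadjusted p below 0.05, 64 rose and 2 fell.

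CXorf67 changed most, by 3.96 ± 0.19 in log2 units (± standard error, 2 arrays a group, limma's adjusted p = 0.000339). The lowest adjusted p belonged to LOC100506791, a predicted noncoding gene near the end of chromosome 5, whose 2 probes share 51 bases and moved by 3.07 ± 0.11 and 2.90 ± 0.16 (limma's adjusted p = 0.000159 and 0.00059). Its neighbour XLOC_l2_011908 moved by 2.60 ± 0.16, and RADIL by 2.11 ± 0.16. All of these read several-fold higher on both TSA arrays than on both mock arrays. LOC100506405, at 6.38 and 12.3 in siUHRF1 and 80.1 and 98.4 in siUHRF1 + TSA, changed by 3.33 ± 0.29. TKTL1 and CBS, which had the largest limits of the named genes without TSA, did not pass the test, with differences of 0.94 ± 0.32 and 0.59 ± 0.55.

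LOC100506930, BEX2, KRT83, ENST00000424436, PGAP1 and AACSP1 were the 6 with both TSA arrays below both mock arrays, and none passed. For BEX2 the difference was -0.58 ± 0.18 and for KRT83, a hair keratin, -0.98 ± 0.45. The count of 42 rested in part on single arrays: it was 22 without siUHRF1 replicate 1, 19 without siUHRF1 + TSA replicate 1 and 23 without siUHRF1 + TSA replicate 2, and 26 with another background correction. Summed markers of colon epithelium and of other cells both read higher with TSA. The 13 colon epithelium markers summed to 5535 and 6266 in siUHRF1 and to 9469 and 7743 in siUHRF1 + TSA. Most of each sum was KRT18 alone, at 4767 and 5574 in siUHRF1 and 8356 and 6920 in siUHRF1 + TSA. The sums therefore say little of the other colon markers. The summed relative signal of 9 genes for leukocytes, endothelium and fibroblasts was 34.8 to 57.4 in siCONT and siUHRF1, 66.7 and 70.5 in siCONT + TSA, 146 and 161 in siUHRF1 + TSA and 129.9 on the 5-aza-dC array. Of these 9 genes, 6 were above background on each siUHRF1 + TSA array, while PECAM1 and COL3A1 were not above background on any siRNA array. VWF (58.75 and 47.26) and COL1A1 (35.02 and 67.66) had the largest signals in siUHRF1 + TSA. The part of these markers in the result was not tested.

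**Figure D3:**
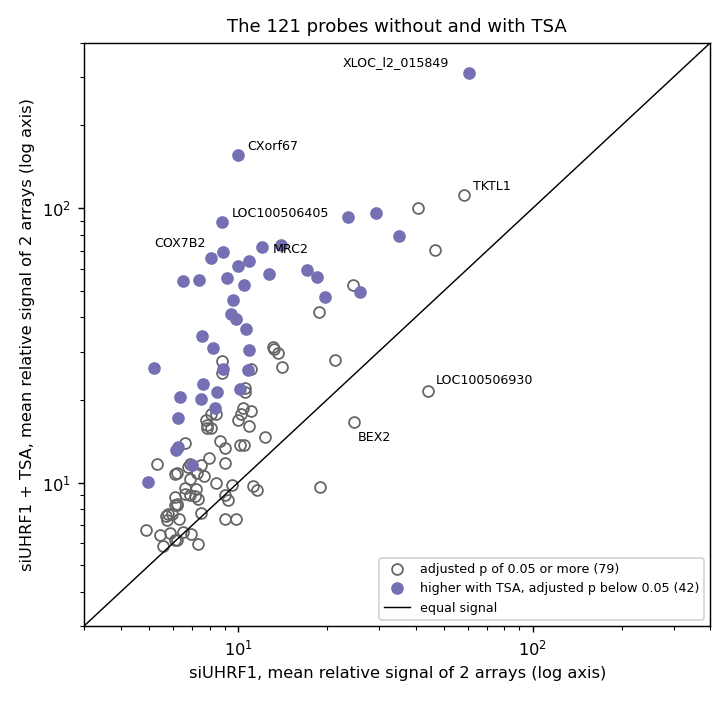
Mean relative signal of 2 arrays in siUHRF1 (horizontal) and siUHRF1 + TSA (vertical), both on log axes, for the 121 probes, with filled points for the 42 that rose at an adjusted p below 0.05 in limma. Most points lie above the line of equal signal, XLOC_l2_015849 and CXorf67 highest among them, while LOC100506930 and BEX2 lie below it.

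Between the siRNAs the selected probes differed by a median of 0.33 log2 units in size without TSA and 0.30 with it. In siUHRF1 33 of 121 read higher with siUHRF1-1 than with siUHRF1-2, with a median log2 difference of -0.21 between them. Under TSA 64 of 121 did, with a median of 0.03.

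The 5-aza-dC array was not used by the selection. On it 109 of the 121 probes (90.1%) were detected, against 13.5% of the 26070 probes that were likewise not above background on the 4 siCONT arrays, and 51.6% of all probes. Those 26070 did not have to be detected on any array, whereas the members had to be detected on all 4 siUHRF1 arrays. The laxer flag was set on all 4 siCONT arrays for 67 members. The class is thus not matched to the members for signal, and its shares are a background and not a control. The limit over siCONT exceeded 2-fold for 92 of the 121 probes, against 6.02% of those 26070. Its median over the 109 probes was 6.98-fold, against 1.72-fold for all such probes of that class, and it exceeded 10-fold for 50 and 100-fold for 10.

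As a description, limma put 102 of the 121 (84.3%) higher than siCONT, with 69.8% of the 3664 fitted probes of that class, most of which were fitted because of their signal on the 5-aza-dC array. Nothing is read from these shares, since the spread of the lone array was taken from the other groups and the members were chosen for being undetected in siCONT. Another 4 were put lower, none of them above background there, so they have no direction. The split depended on the scaling: with spike-in scaling it was 79 higher and 13 lower, and the members' median log2 difference was 2.48 in place of 3.77. With normexp background correction it was 71 and 13, with a median of 0.93. The limits given for 5-aza-dC hold for the 75th percentile scaling alone. The agent, the absence of siRNA and the slide cannot be told apart.

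The 5 highest limits with 5-aza-dC were those of VCX2, XLOC_l2_015849, VCY, TKTL1 and CXorf67. The VCX2 probe read 12736, at least 2546-fold over siCONT, and that of VCY 3518, at least 703-fold. CXorf67 read 2355, and GPAT2 1113. The lysosomal membrane gene LAPTM4B and the noncoding gene LOC100134317 were weak in siUHRF1, at 11.1 and 9.44 and 10.996 and 13.95, but reached 1109.7 and 1489 with 5-aza-dC. CBS read 899, HIST1H1A 791 and MRC2 477.

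Relative to siUHRF1 + TSA, 84 of 121 probes read higher on the 5-aza-dC array than on both TSA arrays, a count that was 67 with normexp background correction and 47 with scaling on the spike-in probes. LOC100506405 ran the other way, with 80.1 and 98.4 in siUHRF1 + TSA and 30.2 with 5-aza-dC, and so did CD33, at 38.1 and 30.6 and 7.72, and ICAM2, at 98.3 and 87.4 and 52.3.

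The 12 probes not above background with 5-aza-dC included those of ABCA4, BTD, C19orf26, ENST00000424436, IFIT3, LOC440330, PGAP1, PRUNE2, STRA6, TCTEX1D4 and XLOC_l2_013301. All were faint in siUHRF1. PRUNE2 read 9.34 and 6.63 there and 1.87 with 5-aza-dC, STRA6, a receptor for retinol-binding protein, 9.39 and 9.05 and 3.31, and IFIT3 5.31 and 7.37 and 3.25. Their limits in siUHRF1 ranged from 1.08-fold for C19orf26 to 1.97-fold for ENST00000424436.

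**Figure D4:**
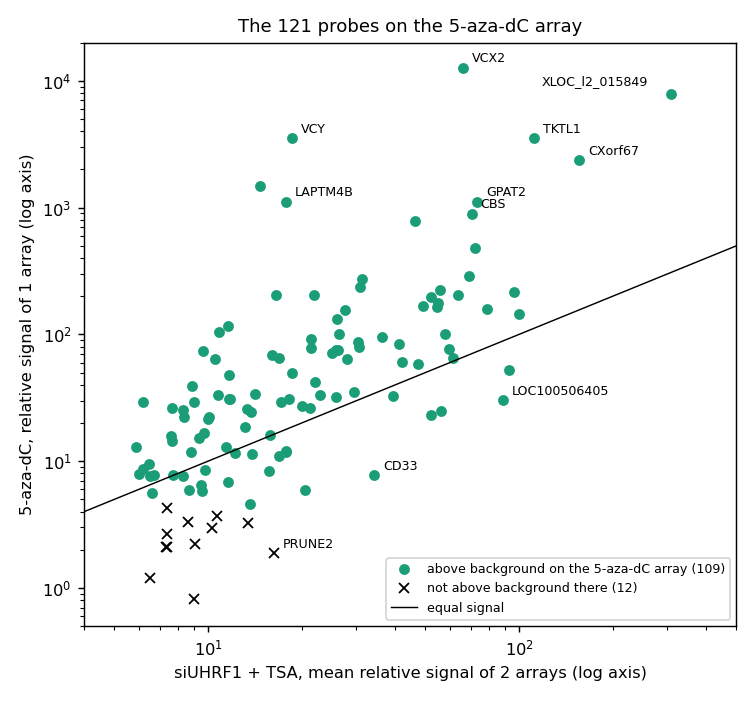
Relative signal on the single 5-aza-dC array (vertical) against the mean of 2 siUHRF1 + TSA arrays (horizontal), both on log axes, for the 121 probes, with crosses for the 12 not above background with 5-aza-dC. VCX2, XLOC_l2_015849, TKTL1, VCY and CXorf67 lie highest, and CD33 and LOC100506405 lie below the line of equal signal.

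Chromosome 19 held 13 of the 121 probes (10.74%), against 3.46% of the 26070 probes not above background in siCONT, and chromosome 21 held 6 (4.96% against 1.82%). Chromosome 18 held 0 and chromosome 3 held 1. Of the 119 probes placed on a chromosome, 39 (32.8%) lay within 5 Mb of the outermost probe at either end, compared with 14.1% of the probes not above background in siCONT and 14.8% of all probes. That distance was chosen after the positions were seen, neighbouring probes are not independent, and no test was made.

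Different names lay within 1 Mb of each other in 24 pairs of probes. The keratin genes KRT83 and KRT8 share a cluster on chromosome 12, the zinc finger genes ZSCAN18 and ZNF274 lie 128659 bases apart near the end of chromosome 19, and HBM and PDIA2, a globin gene and a disulfide isomerase gene, lie 119851 bases apart at the end of chromosome 16. ADAMTSL2 and SARDH are 91315 bases apart on chromosome 9. LOC100134317 and LOC100506930 lie on opposite strands of chromosome 19 with 430 bases between their probes. BTG4, an oocyte and testis regulator of mRNA decay, and LOC728196 lie 15524 bases apart on chromosome 11.

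**Figure D5:**
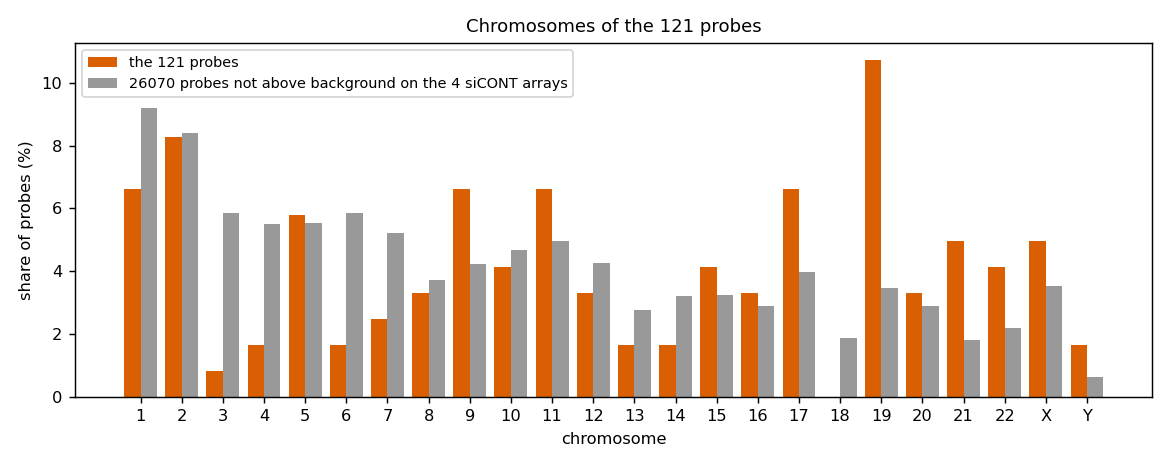
Share of probes (%) on each chromosome for the 121 selected probes and for the 26070 probes not above background on the 4 siCONT arrays. The bar of the selected probes is about 3 times the other on chromosome 19 (10.74% against 3.46%), and there is none on chromosome 18.

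Genes next to the selected probes were examined for the mean effect of UHRF1 depletion without and with TSA. Within 100 kb lay 354 other genes that entered the test, of which 23 rose and 1 fell, against 3.76% of 17639 genes that rose. Counting only genes above background on all 8 siRNA arrays, for which a fold can be measured on both sides, 16 of 315 rose and 1 fell, against 2.2% and 0.928% of 15627 genes. LOC100506305, next to A_33_P3323914, rose by 2.38 ± 0.12 log2 units (limma's adjusted p = 0.000316), from 8.59 and 10.1 in siCONT to 31.4 and 42.4 in siUHRF1. GPR20, an orphan receptor gene next to LOC731779, rose by 1.09 ± 0.10 (limma's adjusted p = 0.0027). SOHLH1, a germline transcription factor gene left out by name, lies within 100 kb of KCNT1 and is among the 23 that rose. It was above background on no siCONT array, as the selection asked, so its rise carries no separate weight. The 315 genes do not include it. The counts of genes that rose ran from 9 to 34 as single arrays were left out, with 9 without either siCONT replicate or without siCONT + TSA replicate 2, 12 without siCONT + TSA replicate 1 and 14 without siUHRF1 + TSA replicate 1.

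Of the gene lists drawn up for germline and meiosis, interferon response and RNA sensing, silencing in colorectal cancer, DNA methylation, imprinting, colon epithelium and other cells, the selected names were TKTL1 among 54 germline genes on the array, IFIT3 among 31 interferon genes, TET1 among 15 DNA methylation genes, KRT8 among 13 colon markers, and 0 of 16 silenced, 19 imprinted and 9 other-cell genes. Genes left out by name, such as SOHLH1 and IGF2, could not be counted as selected in any list, so these counts depend on that choice. Among the germline genes 38 were not above background on any siCONT array. Over all probes tested, 9.95% rose and 5.53% fell with TSA in UHRF1-depleted cells. Of the other germline genes that could be tested, 8 of 18 rose and 2 fell. Of the other interferon genes 6 of 22 rose and 1 fell, and of the other DNA methylation genes 0 of 12 rose and 2 fell. In the remaining lists 4 of 6 genes of other cells, 2 of 5 other colon markers, 2 of 12 imprinted and 1 of 7 silenced genes rose, and 0 fell.

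Promoters of the selected genes were not all rich in CpG. RefSeq gave the stretch from 250 bases before to 50 bases after the annotated start of 65 of them (GRCh38.p14), and another start may serve the transcript that a probe reads. The stretch held a median of 12 CpG, with quartiles of 6 and 27, against 10 for genes with a probe not above background in siCONT and 22 for all genes on the array. A CpG observed-to-expected ratio over 0.6 was found in 44.6% of the 65 promoters, 42.2% of the former and 65.7% of the latter genes. The TATA motif TATAAA, on either strand, stood in 10.8% of the 65 and 12.0% of 27305 promoters, the E-box CACGTG in 10.8% and 7.43%, and the ETS motif CCGGAAG in 13.8% and 10.67%. For genes with a probe not above background in siCONT the shares were 14.28%, 6.712% and 6.236%, in the same order. For all genes on the array they were 9.408%, 8.855% and 14.22%, and no test was made.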

How the data were processed

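RKO RNA was hybridised to 9 one-colour Agilent SurePrint G3 arrays. The deposited intensity values came from Agilent Feature Extraction 10.7, by which the authors subtracted background, detrended each array and replaced very dim spots by surrogates. They are linear and not normalized between arrays. The deposited detection flags are 0 or 1, and the deposited value table repeats the same signals.

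The members, function groups and gene lists were chosen with earlier results of these data known. Log2 signals were shifted by the 75th percentile of each array, 2611 outlier spots were left out, and spots of 1 probe were averaged. No spot was saturated. The model of limma 3.58.1 (R 4.3.3) used 8 arrays in 4 groups, or 9 in 5 for 5-aza-dC, over probes detected throughout at least 1 group, with Benjamini-Hochberg adjustment over all probes tested; it was tested on simulated data. The number of arrays limits the precision. Each neighbour was read by its brightest probe.

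Members named with values had the 10 highest limits without TSA, the 5 highest with TSA or with 5-aza-dC, or the 5 lowest adjusted p with TSA, or were undetected with 5-aza-dC, held by 2 probes, in a list, within 1 Mb of another member or at the edge of the flags. Further examples, such as TRPM2, MRC2, HIST1H1A, LAPTM4B and LOC100506405, were chosen after their values were seen. RefSeq (GRCh38.p14) matched 98 of the 121 probes by name or accession. Exon annotation was not used here. Alternatives covered scaling, background correction, filters, flags, priors, left-out arrays, a replicate block and the methods' t-test.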

Additional observations from a re-analysis of the deposited data

How the results depend on the processing

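The selection gave 127 to 199 probes as single arrays were left out, with 199 without siUHRF1 replicate 1. With the laxer flag it gave 149 probes, of which 12 were shared. The number of members that rose in siUHRF1 + TSA over siUHRF1 (42) was 26 with normexp background correction, 22 with no filter and 0 by the methods' t-test after Benjamini-Hochberg adjustment, where 48 rose and 1 fell unadjusted. It ran from 19 to 40 as arrays were left out and from 29 to 51 under the other settings, with 51 under a replicate block. Of the 42, 37 were also called after quantile normalization. Why these counts moved was not tested. The count called higher with 5-aza-dC was 71 to 103, and 96 to 101 without single arrays; a filter on detection in both groups leaves no member to test. Neighbouring genes that rose (23) numbered 13 with normexp, 11 with no filter, 15 when detection on every array was asked, 80 of 1483 within 500 kb, and 9 to 34 as arrays were left out. None of the 42 members that rose with TSA reversed direction under any setting. For 5-aza-dC and for the neighbouring genes only counts and medians were compared, so reversals of single probes or genes were not tested. Where arms were left with 1 array, it was assumed to vary like the rest.

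Same-numbered siUHRF1 arrays without and with TSA deviated together (correlation 0.56 over 20747 probes), siCONT arrays hardly (0.08). These are 2 pairs and the labels state no shared culture. The siUHRF1 pairs differ in their siRNA (siUHRF1-1 or siUHRF1-2), whereas both siCONT pairs carried the control siRNA. A shared siRNA and a shared culture cannot be told apart here. The main fit, which gave 42 members, did not use this pairing. With the replicate block 51 members rose with TSA, 39 of the 42 among them, and with a random replicate block 12 neighbouring genes rose. Dim signals limit all of these values, since the members' siCONT levels are below detection.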
